A study of Mus musculus with 12 samples.

Results

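In the deposited gene table, 1184 new loci carry the Gene Ontology (GO) term proline dehydrogenase activity. A new locus is a stretch of the genome where the authors assembled transcripts from their long reads and found no reference gene. The loci were taken as the table's lines whose gene type is a new gene and whose GO entry names that activity, and 471 of them (39.8%) are described here because they reached 1 CPM (the usual library-scaled unit, the count of a locus scaled to the total count of its mouse) in at least 4 of the 12 mice. They were thus chosen partly by their measured level, and the remaining 713 lie under that limit. The whole table lists 31208 genes and loci, of which 8652 are new loci, so that the term sits on 13.7% of them.

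Proline dehydrogenase is an enzyme of the mitochondrial inner membrane that takes the first step of proline breakdown, oxidising proline to pyrroline-5-carboxylate and passing the electrons to the respiratory chain. Aldh4a1 then turns the product into glutamate, while pyrroline-5-carboxylate reductases carry it back to proline. In mice the enzyme is encoded by Prodh, which is expressed in brain, and its relative Prodh2 acts on hydroxyproline.

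Brain RNA came from C57BL/6 mice aged 8 weeks, 4 in each of 3 groups. Sham mice, named so in the labels, had no ischemia. Vehicle-treated ischemic mice received saline into the cerebral ventricles before occlusion of the middle cerebral artery (MCAO), and lactate-treated ischemic mice received lactate at 100 mmol/L, with 2 µL given 24 h before surgery in both groups and brains taken after 6 h of ischemia. The form is given as D-lactate in the study's methods and is not given in the labels. Whether sham mice received an injection is not given in the sources used here. Each replicate of the labels was taken as one mouse, with one long-read library of PCR-amplified cDNA. Mouse numbers only name the animals.

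Total counts ranged from 6815920 to 10677224 per mouse, and 3 counts, the smallest level taken as detected, equal 0.281 to 0.440 CPM. Markers of neurons, astrocytes and oligodendrocytes were present in every mouse, and no marker list had a gene at 0 in all mice. Several lists differed between groups. The summed level of 5 astrocyte markers was 530.1 to 813 CPM in sham, 730.2 to 809 in vehicle-treated and 897 to 953 in lactate-treated mice. For 5 choroid plexus markers it was 1.36 to 5.54 CPM in sham and 9.94 to 19.1 in lactate-treated mice, and in the vehicle group it spanned 4.11 to 1837, the top value in mouse 2. Of 8 RNAs known to stay in the nucleus 5 were found, with summed levels of 2140 to 3432 CPM in sham, 2111 to 2726 in vehicle-treated and 1552 to 2105 in lactate-treated mice. For 5 microglia markers the sums were 124 to 142 CPM in sham, 77.6 to 106 in vehicle-treated and 101.3 to 112 in lactate-treated mice, and for 5 red blood cell genes 560.4 to 633, 333 to 500.4 and 375 to 499. For 5 neutrophil markers they were 0.557 to 2.24, 8.07 to 67.8 and 15.3 to 36.8 CPM, and sham overlapped neither ischemic group in these 3 lists. For 4 endothelial markers sham mice, at 73.0 to 84.1 CPM, overlapped the vehicle group (51.4 to 79.9) and lay above all lactate-treated mice (50.9 to 69.8). The 13 mitochondrially encoded RNAs summed to 12882 to 21020 CPM in sham, 9088 to 20595 in vehicle-treated and 11317 to 13175 in lactate-treated mice. Their part in the results below was not tested.

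How the term was assigned to the loci is not given in the sources used here. All 1184 loci carry one and the same GO entry, which pairs proline dehydrogenase activity with the proline catabolic process. The Pfam proline dehydrogenase domain is listed for only 2 lines of the table, Prodh and Prodh2, and 0 of the 1184 loci have any Pfam entry, against 621 (8.32%) of the 7468 other new loci. No locus is named a proline dehydrogenase or proline oxidase in the NCBI non-redundant (NR), Swiss-Prot or KEGG columns. Instead, 986 loci (83.3%) have ariadne-2, a ubiquitin ligase, as their KEGG match, with E values from 2.8e-15 to 9.6e-06 (median 1.2e-10), compared with 2481 (33.2%) of the other new loci. The ubiquitin ligase NEDD4 is the Swiss-Prot match of 291 loci (24.6%), compared with 745 (9.98%) of the other new loci. Outside new loci, the term is on Prodh, Prodh2, 5 known and 6 newly assembled long noncoding RNA loci.

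The best NR matches fall into a few proteins, most of them predictions from genome annotation with no known function. The rat prediction rCG56442 is the match of 528 loci (44.6%), of which 188 are described. The mouse prediction mCG1045525 is the match of 294 loci with 108 described, and Chpt1 protein of 136 with 82 described. Chpt1 encodes cholinephosphotransferase, which makes phosphatidylcholine. The predictions mCG1042149, mCG147230 and mCG145372 account for 81, 37 and 29 loci. These protein names are not particular to the annotation, since 3123 of the new loci without the term carry one of them too.

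Most of the described loci were rare. Their mean over 12 mice had a median of 1.90 CPM and ran from 0.629 to 72.7 CPM. A mean under 5 CPM was found for 372 of them and a mean of 10 CPM or more for 46. The 10 highest held 21.7% of the summed level. The described loci held 89.1% of all counts on annotated loci. Of the 1184 loci, 389 reached 1 CPM in 0 mice and 181 in all 12.

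At the limit, the values of 3 loci just inside and 3 just outside show how small the difference is. ONT.10424, with a fourth-highest value of 1.00 CPM (9 counts), ranged from 0.389 to 1.12 CPM over the 12 mice. The next inside, ONT.17173 and ONT.18089, ranged from 0.132 to 3.35 and from 0.468 to 2.28 CPM. Outside, ONT.13316, ONT.1347 and ONT.20684 each had a fourth-highest value of 0.996 CPM (8 counts).

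Together the described loci took a larger share of the counts in lactate-treated mice than in sham mice. Their summed level was 1123, 1714, 1318 and 1658 CPM in sham mice 1 to 4. In vehicle-treated mice 1 to 4 it was 1420, 1606, 2764 and 2452 CPM. In lactate-treated mice 1 to 4 it was 2963, 4775, 2775 and 2635 CPM. Every lactate-treated mouse lay above every sham mouse, and 2 of the 4 vehicle-treated mice lay above all sham mice. As shares of all counts, the means were 0.145% ± 0.0281 (SD, n = 4) in sham, 0.206% ± 0.0649 (SD, n = 4) in vehicle-treated and 0.329% ± 0.100 (SD, n = 4) in lactate-treated mice.

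The mean with vehicle was 1.42 times that of sham, and the groups overlapped. With lactate it was 2.26 times that of sham, and it fell to 1.92 times without lactate-treated mouse 2. Lactate-treated mice had 1.60 times the mean of vehicle-treated mice, with overlap, and 1.35 times without lactate-treated mouse 2. All 1184 annotated loci, for which no limit on the level was used, gave ratios of 1.44, 2.29 and 1.58 in the same order. Of the counts on new loci alone, annotated loci took 1.60% to 2.23% in sham, 1.86% to 3.65% in vehicle-treated and 3.12% to 5.55% in lactate-treated mice. In bulk brain tissue, more cells that hold an RNA and more of it per cell cannot be told apart, nor can fewer cells and less of it per cell.

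**Figure D1:**
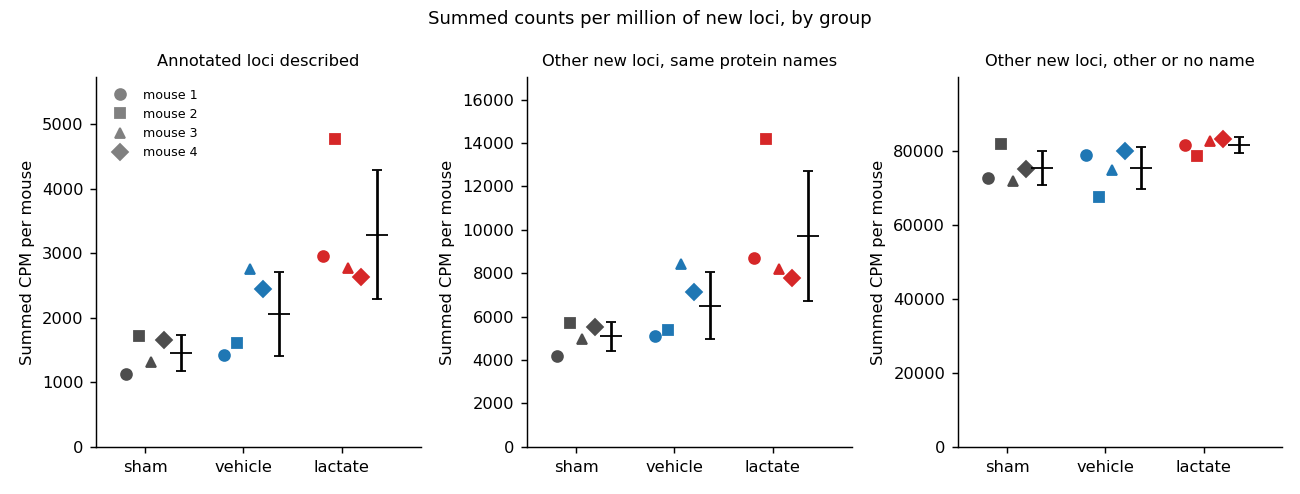
Summed CPM (linear axes from 0) in each of 12 mice, for the 471 described loci, for other new loci with the same protein names and for other new loci with another name or none. Symbols mark mouse numbers within a group, and the bar beside them gives the mean and SD of 4 mice. In the left and middle plots all 4 lactate-treated mice lie above all sham mice, with lactate-treated mouse 2 at 4775 and 14193 CPM, while the right plot stays between 67507 and 83184 CPM.

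In all 10 loci with the highest mean, the group mean was lowest in sham and highest in lactate-treated mice. ONT.11168 was the highest, at 36.9, 74.6, 51.6 and 62.9 CPM in sham mice and 54.7, 50.0, 79.9 and 66.0 CPM in vehicle-treated mice. In lactate-treated mice it was at 110, 109, 84.1 and 92.5 CPM, above every mouse of both other groups. Against sham it rose with lactate by a log2 fold change of 0.82 (SE 0.19, edgeR adjusted p = 0.0156). Against vehicle its log2 fold change was 0.64 (SE 0.17, edgeR adjusted p = 0.465), and for vehicle against sham it was 0.17 (SE 0.22, edgeR adjusted p = 0.789). The call for lactate against sham was lost without sham mouse 3.

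ONT.17448, matched to rCG56442, was at 28.1, 46.0, 34.4 and 51.4 CPM in sham mice. It was at 39.5, 37.6, 66.6 and 78.3 CPM in vehicle-treated and 77.2, 123, 69.0 and 71.8 CPM in lactate-treated mice. The lactate group lay above all sham mice but overlapped the vehicle group, and the vehicle group overlapped sham. For lactate against sham the log2 fold change was 1.10 (SE 0.22, edgeR adjusted p = 0.00730) and for vehicle against sham 0.50 (SE 0.26, edgeR adjusted p = 0.428). ONT.18505, with the same match, had nearly the same value in each mouse and is treated with the near-identical loci below.

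Among 3 loci matched to mCG147230, ONT.4181 and ONT.13800 followed one pattern and ONT.12074 another. ONT.4181 was at 27.2 to 46.0 CPM in sham, 35.1 to 53.6 in vehicle-treated and 59.5 to 99.4 in lactate-treated mice. ONT.13800 was at 22.4 to 38.7, 28.9 to 47.7 and 52.7 to 88.7 CPM. For both, lactate-treated mice lay above all other mice, with log2 fold changes against sham of 1.00 (SE 0.20) and 1.08 (SE 0.20), and edgeR adjusted p of 0.00655 and 0.00516. ONT.12074 was at 16.2, 21.6, 17.2 and 23.3 CPM in sham, at 24.4, 46.6, 69.2 and 68.8 in vehicle-treated and at 61.3, 144, 61.6 and 44.4 in lactate-treated mice. Here both ischemic groups lay above sham and overlapped each other. ONT.12074 rose in both comparisons with sham, with log2 fold changes of 1.44 for vehicle (SE 0.29, edgeR adjusted p = 0.0247) and 2.00 for lactate (SE 0.31, edgeR adjusted p = 0.00155). The call for vehicle was lost in 6 of the 8 fits with a mouse left out, those without any one of the sham mice, vehicle-treated mouse 3 or vehicle-treated mouse 4 (edgeR adjusted p of 0.0545 to 0.103).

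The loci ONT.14694, ONT.473 and ONT.3521, all matched to Chpt1 protein, had sham values between 17.0 and 25.4 CPM. Their highest vehicle-treated mouse was mouse 4, at 66.0 to 66.6 CPM, while vehicle-treated mice 1 and 2 lay within 21.0 to 23.8 CPM. Lactate-treated mice were at 42.9 to 74.7 CPM. All lactate-treated mice lay above sham for all 3 loci, whereas the vehicle group overlapped sham. The log2 fold changes with lactate against sham were 1.30, 1.31 and 1.32 (edgeR adjusted p = 0.00109, 0.00128 and 0.00124). The tenth locus, ONT.14854, rose by 1.14 (SE 0.28, edgeR adjusted p = 0.0178) with lactate against sham and did not keep the call without sham mouse 1 or sham mouse 3.

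**Figure D2:**
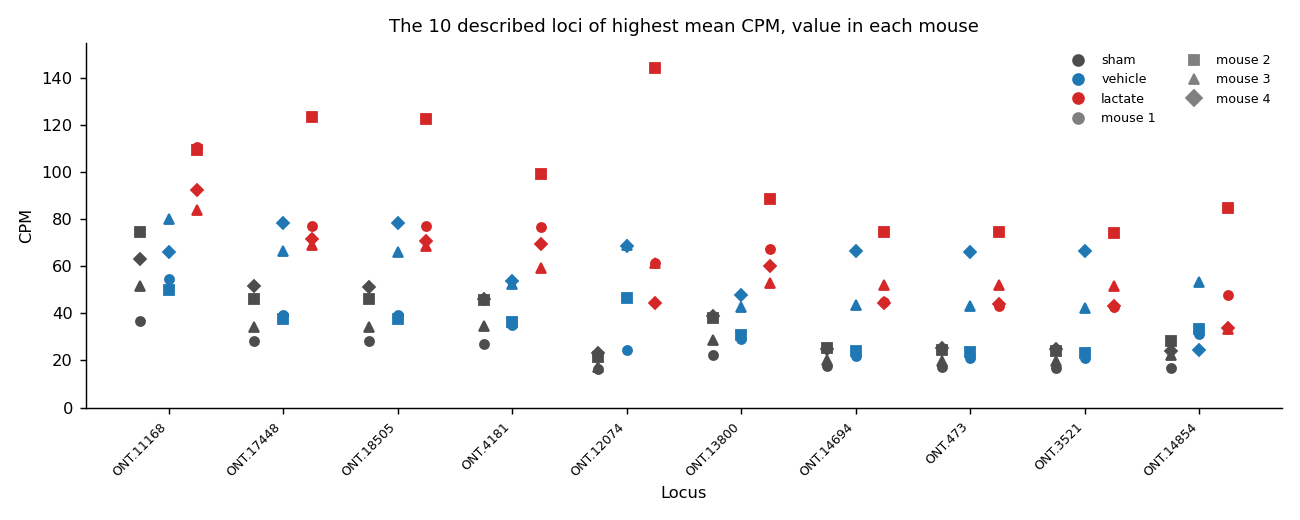
CPM (linear axis from 0) of the 10 described loci with the highest mean over 12 mice, with one point for each mouse, coloured by group and shaped by mouse number. For ONT.12074, lactate-treated mouse 2 reaches 144 CPM while the other lactate-treated mice lie between 44.4 and 61.6 CPM.

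To ask how many loci changed, the groups were compared 2 at a time with edgeR over 18134 genes and loci. A locus was counted as higher or lower at an adjusted p under 0.05 and a fold of at least 1.5. The limit on the level lets a locus in through the group where it is high, so the counts below are descriptions and are given beside all genes and loci tested.

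For vehicle against sham, 9 of the 471 loci (1.91%) were higher, against 1.33% of all genes and loci tested, and 0 were lower, against 0.171%. DESeq2 gave 18 higher, against 2.32% of all, and 0 lower, against 0.397%. At an unadjusted p, 127 were higher (27.0%, against 7.28% of all) and 0 lower (against 2.97%). In 59 loci (12.5%, against 4.47% of all) every vehicle-treated mouse lay above every sham mouse, and in 1 locus every one lay below (against 4.68% of all). The median log2 fold change was 0.60, beside 0.01 over all tested, and 422 of 471 values were above 0. Without vehicle-treated mouse 3 the median was 0.38 and 383 values were above 0. The count was 0 without sham mouse 1 or sham mouse 3, 1 without sham mouse 4 or vehicle-treated mouse 3, 2 without sham mouse 2 and 26 without vehicle-treated mouse 1. The share of all genes and loci tested that were higher moved in the same direction in these fits, to 0.64%, 0.579%, 0.618%, 0.855%, 0.607% and 2.29% in that order of mice. Without vehicle-treated mouse 2 the count was 6 and the share 1.02%. Without vehicle-treated mouse 4 the count was also 6, while the share moved the other way, to 1.4%.

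For lactate against the same sham mice, 243 of 471 loci (51.6%) were higher, against 8.07% of all genes and loci tested. The number lower was 0, against 2.62% of all, and at an unadjusted p it was 1, against 5.8% of all. At an unadjusted p 367 (77.9%) were higher, against 12.5% of all. DESeq2 gave 226 higher, against 8% of all, and 0 lower, against 2.65%. The groups did not overlap in 279 loci that were higher (59.2%, against 10.8% of all) and 1 that was lower (against 8.47% of all). The median log2 fold change was 1.18, beside -0.03 over all tested, and 455 of 471 values (96.6%) were above 0. The count of higher loci was 150 without lactate-treated mouse 2, 146 without sham mouse 1 and 139 without sham mouse 3. The share of all genes and loci tested that were higher fell as well in these fits, to 5.81%, 5.55% and 5.36%.

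Lactate against vehicle gave 0 higher and 0 lower loci with edgeR at an adjusted p, against 0% and 0.00551% of all tested. DESeq2 gave 3 higher (against 0.287% of all) and 0 lower (against 0.0496%). At an unadjusted p, 116 loci (24.6%) were higher, against 3.77% of all, and 1 was lower, against 2.58%. No overlap was found for 46 loci (9.77%, against 2.98% of all), and all of these were higher with lactate, while 1.84% of all tested were lower without overlap. The median log2 fold change was 0.59, beside -0.03 over all tested, and 441 values were above 0. Without lactate-treated mouse 2 the median was 0.37.

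Some loci did not depend on an ischemic group to pass the limit. Among the 188 loci at 1 CPM or more in all 4 sham mice, 5 (2.66%) were higher with vehicle and 130 (69.1%) with lactate, against 1.33% and 8.07% of all genes and loci tested, and the median log2 fold changes were 0.45, 1.10 and 0.60 for the 3 comparisons in the order given. For the 169 loci at 1 CPM or more in at most 1 sham mouse, which had to be higher elsewhere to pass, the filter itself raises the change against sham, so no comparison with the 188 is made. With no limit on the level, 284 of 1180 annotated loci with any count were higher with lactate against sham, against 6.08% of the genes and loci then tested. In that fit 14 were higher with vehicle, against 1.09%, and 0 with lactate against vehicle, against 0.00362%. The shares lower over all tested were then 0.149% with vehicle and 2.1% with lactate against sham, and 0.00362% with lactate against vehicle.

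The same pattern was present in new loci without the term, where the protein match was shared. Of 1180 tested new loci that carry one of the same protein names without the term, 25 (2.12%) were higher with vehicle against sham. With lactate against sham 522 (44.2%) were higher and 1 lower. Of all genes and loci tested, 1.33% were higher with vehicle and 8.07% with lactate, and 2.62% were lower with lactate. Their median log2 fold changes were 0.52, 1.13 and 0.55. In the 2550 tested new loci with another name or none, 38 (1.49%) were higher with vehicle against sham. With lactate against sham 145 (5.69%) were higher and 51 (2%) lower, and the medians were -0.03, -0.04 and -0.01. Ensembl genes had medians of -0.01, -0.07 and -0.06. Of 13528, 163 (1.2%) were higher with vehicle against sham, and with lactate 539 (3.98%) were higher and 403 (2.98%) lower. No test was made between these sets, because loci are not replicates of a condition.

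**Figure D3:**
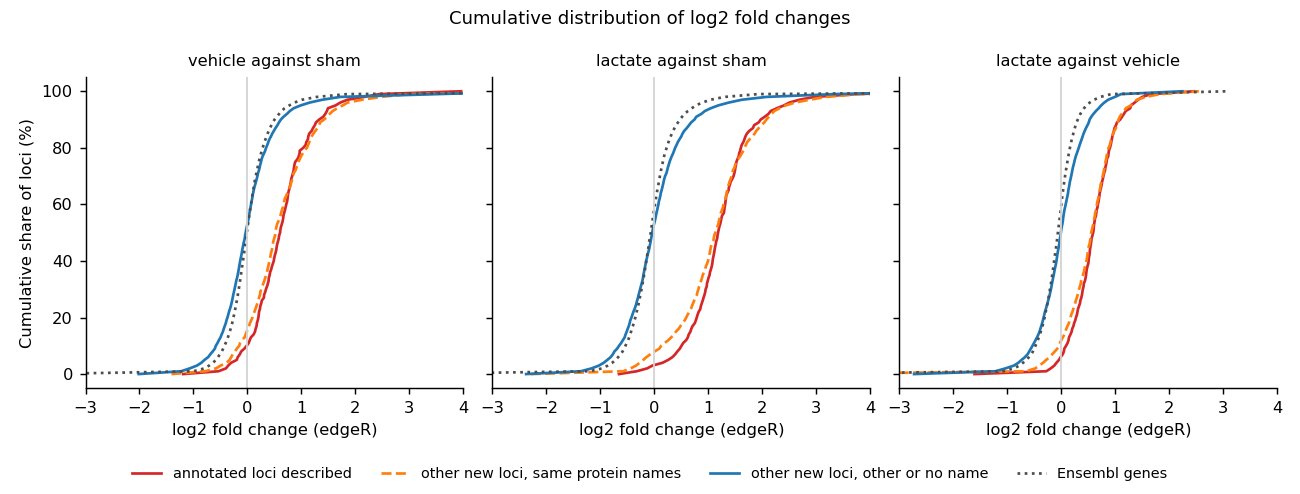
Cumulative share of loci (vertical axis, %) at or below each edgeR log2 fold change (horizontal axis) in the 3 comparisons, for 471 described loci, 1180 other new loci with the same protein names, 2550 other new loci and 13528 Ensembl genes; values beyond the axis are not drawn. The lines of the described loci and of the same-name loci run close together, with medians of 1.18 and 1.13 for lactate against sham, and the other sets centre on 0.

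By protein match, the medians for lactate against sham lay between 1.01 and 1.21 for the 8 names with 5 or more described loci. The counts of higher loci that follow stand beside the 8.07% of all genes and loci tested that were higher. The medians were 1.18 for rCG56442 (102 of 188 loci higher), 1.21 for mCG1045525 (51 of 108) and 1.19 for Chpt1 protein (43 of 82). For mCG147230 the median was 1.21 (11 of 22), for mCG145372 1.12 (6 of 14) and for mCG1042149 1.01 (11 of 24). The new loci of these 6 names without the term had medians of 1.23, 1.33, 1.08, 1.06, 1.33 and 1.13 in that order. Names with fewer loci lay further apart, at 1.76 for mCG146147 (4 loci), 1.71 for rCG23351 (4), 2.26 for mCG147669 (1), 0.63 for Tmem176a protein (1) and -0.04 for geranylgeranyl pyrophosphate synthase (1). The 887 tested new loci without the term but with an ariadne-2 match had a median of 1.17. In contrast, the 7 tested long noncoding RNA loci that carry the term had a median of -0.20, and 0 of them passed the test in any comparison with edgeR at an adjusted p. At an unadjusted p, 1 of these 7 was lower with vehicle and 1 higher with lactate against sham, and DESeq2 called 0.

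For 18 of the 20 protein names with a described locus, the mean summed level was lowest in sham and highest in lactate-treated mice. The exceptions, each with 1 described locus, were the matches to geranylgeranyl pyrophosphate synthase, at 3.45, 3.85 and 3.34 CPM in sham, vehicle-treated and lactate-treated mice, and to Tmem176a protein, at 0.764, 1.29 and 1.15 CPM. Loci matched to rCG56442 summed to 529 ± 102 CPM in sham, 761 ± 261 in vehicle-treated and 1226 ± 388 in lactate-treated mice (SD, n = 4). Loci matched to Chpt1 protein summed to 289, 433 and 655 CPM on average, and those matched to mCG1045525 to 266, 354 and 550 CPM. Across the described loci, the log2 fold change for lactate against sham had a Spearman rho of -0.02 with the mean CPM and of -0.08 with the E value of the ariadne-2 match in the 423 loci that have one, as a description over loci that share libraries.

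Loci with the largest changes against sham were low in sham mice. ONT.2679, matched to rCG56442, had 0, 1, 1 and 1 counts in sham mice. It was at 0.468, 1.30, 3.73 and 1.17 CPM in vehicle-treated and 1.89, 6.35, 1.45 and 1.04 CPM in lactate-treated mice. Both ischemic groups lay above sham, which was a condition for naming the locus. With so few sham counts only the ratio of summed counts is given, 17.0 for vehicle over sham (95% counting interval 5.52 to 85.1) and 29.1 for lactate over sham (9.62 to 144), intervals that cover counting error only. Without vehicle-treated mouse 3 the first ratio was 9.74 (2.94 to 50.7), and without lactate-treated mouse 2 the second was 15.4 (4.84 to 78.3). Leaving out any other mouse gave 12.99 to 22.7 for vehicle and 22.2 to 35.7 for lactate. The locus was under 1 CPM in every sham mouse and reached the limit through ischemic mice alone, so no test against sham is given for it.

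ONT.9799, also matched to rCG56442, was at 1.32, 0.669, 0.272 and 1.36 CPM in sham mice. It was at 1.78, 3.50, 11.5 and 11.0 CPM in vehicle-treated and 11.2, 47.2, 6.07 and 2.90 CPM in lactate-treated mice. Neither ischemic group overlapped sham, which was a condition for naming the locus, and the ischemic groups overlapped each other. Its log2 fold change was 2.93 for vehicle (SE 0.61) and 4.22 for lactate (SE 0.82), and the latter was 2.89 without lactate-treated mouse 2. No test is given for it, because only 2 sham mice reached 1 CPM and the locus met the limit through ischemic mice.

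ONT.10289 and ONT.10344, matched to rCG56442 and mCG1045525, were at 0.132 to 0.557 and 0.111 to 0.863 CPM in sham mice. In vehicle-treated mice they were at 1.47 to 5.73 and 1.17 to 3.61 CPM, without overlap with sham, which was a condition for naming them. The log2 fold changes were 2.69 (SE 0.55) and 2.32 (SE 0.52), given without a test because ischemic mice alone brought these loci to the limit. ONT.14675 was at 1.71 to 3.34 CPM in sham, 4.96 to 11.2 in vehicle-treated and 6.73 to 21.4 in lactate-treated mice. It rose by 1.72 with vehicle (SE 0.32, edgeR adjusted p = 0.0184) and by 2.26 with lactate against sham (SE 0.38, edgeR adjusted p = 0.00264). The call for vehicle was lost without sham mouse 1, 3 or 4 (edgeR adjusted p of 0.0520 to 0.0780).

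The 3 other loci with the largest rises for lactate against sham owed much of their size to one mouse. ONT.10905 had 2, 2, 0 and 0 counts in sham mice and was at 2.16, 19.0, 2.51 and 0.696 CPM in lactate-treated mice. ONT.18979 was at 0.247 to 0.543 CPM in sham mice, at 16.3 CPM in lactate-treated mouse 2 and at 2.20 to 2.70 CPM in the other 3. ONT.10652, matched to the rat prediction rCG23351, was at 1.05 to 1.90 CPM in sham mice, at 59.0 CPM in lactate-treated mouse 2 and at 3.71 to 11.1 CPM in the other 3. No lactate-treated mouse overlapped sham at any of these loci, which was a condition for naming them. For ONT.18979 the log2 fold change of 3.85, given without a test because ischemic mice alone brought it to the limit, was 2.60 without lactate-treated mouse 2. For ONT.10652 the log2 fold change of 3.76 (edgeR adjusted p = 0.00850) was 2.29 without that mouse (edgeR adjusted p = 0.00261).

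That mouse was the highest of its group in 365 of the 471 loci. Its level divided by the median of the other 3 lactate-treated mice had a median over loci of 1.65 with quartiles of 1.28 and 2.12. It exceeded 2 in 141 loci and was under 1 in 53. Its total count of 8350471 lay within the range of the other mice, and its summed levels of the nuclear and mitochondrially encoded RNAs lay within those of its group. It was apart from the other 3 for 4 endothelial markers (69.8 against 50.9 to 53.8 CPM) and lowest for the choroid plexus markers (9.94 against 17.3 to 19.1 CPM), and the part of either in its levels was not tested. In the vehicle group, mouse 3 was the highest in 302 loci and mouse 4 in 122, and among sham mice it was mouse 2 in 221 and mouse 4 in 163.

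For lactate against vehicle, where 0 loci passed, the smallest unadjusted p values among higher loci belonged to ONT.3972, ONT.20512, ONT.6949, ONT.4245 and ONT.13800. ONT.3972, matched to rCG56442, was at 1.97, 2.46, 3.49 and 2.79 CPM in vehicle-treated and 6.22, 9.58, 4.48 and 5.91 CPM in lactate-treated mice, and its sham mice were at 1.32 to 2.72 CPM. Its log2 fold change was 1.28 (SE 0.29, edgeR unadjusted p = 0.000964 and adjusted p = 0.407). ONT.6949, with the same match, was at 3.89 to 6.35 CPM in vehicle-treated and 7.65 to 10.9 CPM in lactate-treated mice. The groups did not overlap at any of these 5 loci. ONT.4245 had its lowest values with vehicle, at 0.373 to 1.61 CPM, against 0.892 to 1.97 in sham and 2.11 to 4.31 in lactate-treated mice. It met the limit through lactate-treated mice, as only sham mice 3 and 4 and vehicle-treated mouse 4 otherwise reached 1 CPM. Its place by p is thus a description and not a test.

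Few loci had lower values with lactate than with vehicle. ONT.16441, matched to mCG1045525, was at 0.440 to 2.86 CPM in vehicle-treated and 0.264 to 0.812 CPM in lactate-treated mice, which overlap. Its log2 fold change was -1.61 (SE 0.55). No test is given for it, because only vehicle-treated mice 1 to 3 and sham mouse 3 reached 1 CPM. It thus met the limit through the group where it was high. The next by unadjusted p, ONT.12735, ONT.2179, ONT.8588 and ONT.5106, had log2 fold changes of -0.41, -0.40, -0.34 and -0.24 with unadjusted p from 0.254 to 0.397. ONT.8588, matched to sterile alpha motif domain-containing protein 15, was the 1 locus whose lactate-treated mice (1.62 to 2.99 CPM) all lay below sham mice (3.23 to 4.07 CPM), with a log2 fold change of -0.66 (SE 0.26, edgeR adjusted p = 0.118).

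Some loci had almost the same count in every mouse, so their reads may not be separate measurements. To look for this, the squared difference of a pair's counts over their sum was added up over the 12 mice, which gives about 12 when reads are drawn separately, and values under 2 were taken as near-identical. Among loci with a mean count of at least 30, 22 of 131 described loci (16.8%) had such a partner, compared with 68 of 1367 other new loci (4.97%) and 51 of 10373 Ensembl genes (0.492%). In new loci that share the protein names without the term, it was 34 of 292 (11.6%). The 22 loci fall into 12 groups together with 13 other lines of the table, and 0 loci had all 12 counts equal to those of another line.

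ONT.17448 and ONT.18505 had 213 and 214 counts in sham mouse 1, 413 each in sham mouse 2 and 1031 and 1023 in lactate-treated mouse 2. Over 12 mice they summed to 5821 and 5796 counts and differed by 27 when the differences were added. The new locus ONT.474, which lacks the term, belongs to the same group with 5844 counts. ONT.14694, ONT.473 and ONT.3521 form a group with ONT.10384 and ONT.20124, so that 5 of the 10 highest loci lie in 2 such groups. The pair ONT.20878 and ONT.5649 had 2708 and 2717 counts, and their matches carry different names, mCG1045525 and rCG56442. How a read that fits several loci was counted is not given in the sources used here, so the levels of these loci are uncertain. Keeping 1 locus of each group left 461 loci and ratios of the summed level of 1.41, 2.26 and 1.60.

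**Figure D4:**
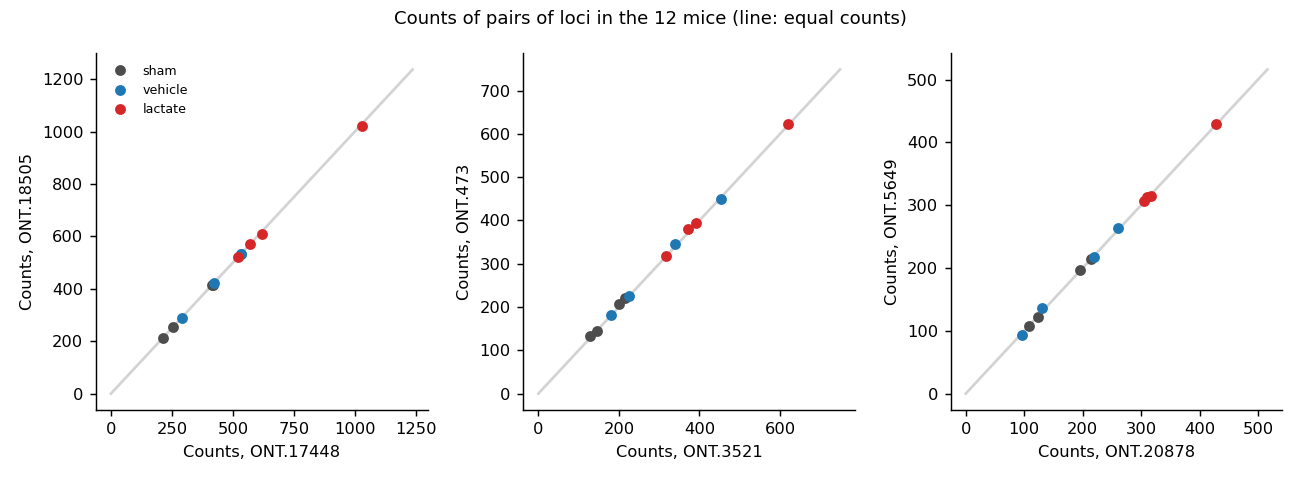
Counts of 3 pairs of described loci in the 12 mice, one point for each mouse, coloured by group, with a line where both counts are equal. All points lie on or next to the line, up to 1031 and 1023 counts for ONT.17448 and ONT.18505 in lactate-treated mouse 2.

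Prodh itself did not pass the test in any comparison. Prodh (ENSMUSG00000003526, GRCm38 chromosome 16, 18060357 to 18090203, minus strand) was at 20.7, 11.0, 14.1 and 17.8 CPM in sham mice. It was at 20.1 to 26.6 CPM in vehicle-treated and at 17.6, 11.0, 17.5 and 19.9 CPM in lactate-treated mice. Lactate-treated mice overlapped sham and lay below all vehicle-treated mice, and the vehicle group overlapped sham. Its log2 fold changes were 0.55 for vehicle against sham (SE 0.20, edgeR adjusted p = 0.242), 0.08 for lactate against sham (SE 0.22, edgeR adjusted p = 0.847) and -0.48 for lactate against vehicle (SE 0.20, edgeR adjusted p = 0.546). Prodh2, mainly a gene of liver and kidney, was at 0.493 CPM or less in every mouse.

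Of 17 symbols of known genes for proline metabolism and transport, where Pycrl and Pycr3 name the same gene, 16 were in the table and 13 were tested. With edgeR at an adjusted p, 0 were higher or lower with vehicle against sham (against 1.33% and 0.171% of all tested). The same held for lactate against vehicle (against 0% and 0.00551%). DESeq2 gave 0 in both comparisons (against 2.32% and 0.397%, then 0.287% and 0.0496%). At an unadjusted p without a limit on the fold, 3 passed for vehicle against sham, 3 for lactate against sham and 2 for lactate against vehicle. The share of all tested was not worked out for that limit, so nothing is read from these counts. For lactate against sham 0 genes were higher (against 8.07% of all tested). The 1 gene that passed at an adjusted p there was Slc6a20a, a transporter for proline and related imino acids, which was lower (against 2.62%). It was at 16.0, 12.2, 15.5 and 12.1 CPM in sham and 7.71, 4.07, 6.72 and 6.73 CPM in lactate-treated mice, without overlap, and fell by 1.12 on the log2 scale (SE 0.21, edgeR adjusted p = 0.00484). Vehicle-treated mice were at 5.81, 12.4, 9.59 and 6.75 CPM, overlapping both.

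None of the other enzymes described passed the test. Aldh4a1, the enzyme after Prodh, was at 2.45 to 4.93 CPM in sham and 1.68 to 2.97 CPM in lactate-treated mice, with a log2 fold change of -0.71 (SE 0.29, edgeR adjusted p = 0.126). For the reductases Pycr1 and Pycrl, which make proline, the log2 fold changes for lactate against sham were -0.38 and -0.15. Aldh18a1, which starts proline synthesis from glutamate, was at 0.29, Oat, which feeds in ornithine, at 0.07, and Pepd, which frees proline from peptides, at 0.29. None of these 5 passed the test in any comparison, with adjusted p from edgeR of 0.262 or more for lactate against sham. The median over the 13 tested genes was -0.05, 0.06 and 0.04 for the 3 comparisons, beside 0.60, 1.18 and 0.59 for the 471 described loci.

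**Figure D5:**
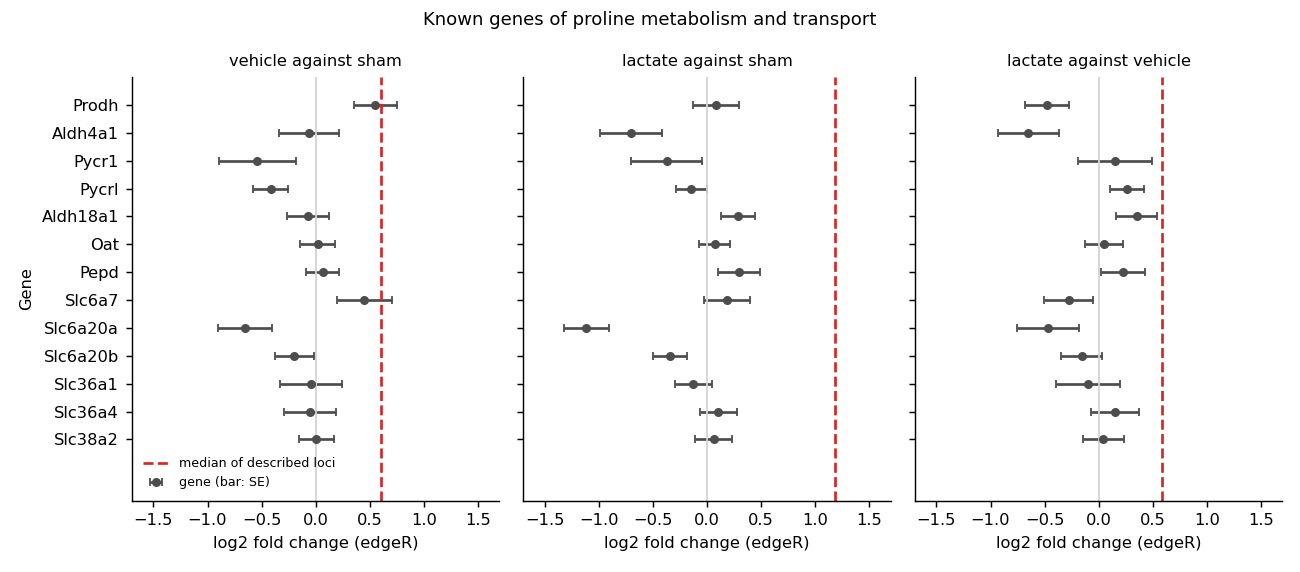
Log2 fold change from edgeR (horizontal axis, bars give the SE) of the 13 tested known genes of proline metabolism and transport in the 3 comparisons, with the median of the 471 described loci as a dashed line. For lactate against sham all 13 genes lie left of the dashed line at 1.18, with Slc6a20a the lowest at -1.12.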

How the data were processed

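Brain RNA of 12 mice was measured, with groups taken from the sample labels. The authors sequenced PCR-amplified cDNA as nanopore reads, kept reads of quality 7 and 500 bases or more, removed ribosomal RNA, mapped full-length reads with minimap2, polished transcripts with pinfish and named them by gffcompare. The authors deposited raw count values for each gene, and CPM values that equal the count scaled to the total of the mouse. How reads were counted per gene is not given in the sources used here. The submitters' processing notes name DESeq 1.10.1. The deposited P values and log2 fold changes of each pair of groups, headed edgeR, were not used. The table has 4 lines without a gene, which were left out and carry no share of the totals, and 0 per-sample columns were left out. New loci have neither coordinates nor sequences in the table, so none are printed. Known genes were placed by GENCODE on GRCm38.

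Tests on the counts used the quasi-likelihood method of edgeR 4.0.16 under R 4.3.3 (TMM factors, the 8 mice of each pair in one fit, 18134 genes and loci that reached 1 CPM in 4 or more of the 12 mice, Benjamini-Hochberg adjustment over all of them, calls at an adjusted p under 0.05 and a fold of at least 1.5). Standard errors are derived from the F statistic. Plots were made with matplotlib 3.10.9, and tables with pandas 2.3.3, scipy 1.17.1 and numpy 2.4.6 in Python 3.11.15, while DESeq2 1.42.0 was an alternative. The fits were tested on simulated data. The labels number replicates, which were taken as separate mice, and p values measure the spread between them.

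The loci named are the 10 of highest mean CPM, for each comparison up to 5 higher and 5 lower loci of largest log2 fold change that were called without overlap of the groups (for lactate against vehicle the 5 of smallest unadjusted p in each direction), the 3 on each side of the level limit, and the known proline genes. Some items of that list and some protein matches are not reported here. ONT.474, ONT.10384, ONT.20124, ONT.20878 and ONT.5649 were named after their counts had been seen. The loci, lists and rules were chosen with earlier results of these data known. Alternatives were an unadjusted p, a fold limit of 2, DESeq2, RLE factors, TMM factors from Ensembl genes, other filters on low counts, one fit of all 12 mice, the mouse number as a replicate block, other sets of loci and leaving out each mouse in turn.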

Additional observations from a re-analysis of the deposited data

Results flagged for a closer look

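A mouse was set apart where its gap to the nearest other mouse of its group of 4 exceeded Dixon's limit over the group's range. Chance sets apart about 1 in 20 groups, and 18 of 171 groups examined were, 9 of them through lactate-treated mouse 2. The mouse had a summed level of 4775 CPM for the described loci and 5441 CPM for all annotated loci, against 2635 to 2963 and 2931 to 3278 CPM in the other 3 lactate-treated mice. It was also the high mouse for ONT.17448 (123 CPM), ONT.18505 (123 CPM), ONT.2679 (6.35 CPM), ONT.10905 (19.0 CPM), ONT.18979 (16.3 CPM) and ONT.10652 (59.0 CPM). ONT.17448 and ONT.18505 have near-identical counts, so they do not add to each other, and the single loci are part of the sums. For the endothelial markers the mouse summed to 69.8 CPM.

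The other 9 values set apart came from other mice. Sham mouse 1 was low for ONT.10289, at 0.132 CPM, and sham mouse 3 was low for ONT.10424, at 0.407 CPM, both at under 4 counts. Vehicle-treated mouse 1 was low for ONT.8588, at 1.499 CPM, and for the transporter gene Slc36a4, at 10.2 CPM, and high for Slc36a1, at 14.6 CPM. Among the sums over marker lists, vehicle-treated mouse 2 was high for the choroid plexus, at 1837 CPM, vehicle-treated mouse 1 was high for neurons, at 4954 CPM, and vehicle-treated mouse 3 was low for the mitochondrially encoded RNAs, at 9088 CPM. Lactate-treated mouse 1 was high for oligodendrocytes, at 9739 CPM.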

How the results depend on the processing

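The summed level of the described loci kept its order under every alternative run for it, with ratios from 1.26 to 1.56 for vehicle against sham, 1.92 to 2.41 for lactate against sham and 1.35 to 1.80 for lactate against vehicle when each mouse was left out. Counts of loci depended more on the settings, and the cause was not tested. For vehicle against sham the 9 higher loci became 127 at an unadjusted p (beside 7.28% of all tested), 18 with DESeq2 (2.32%), 14 with no filter (1.09%), 5 in one fit of all 12 mice (1.32%), 5 among loci at 1 CPM or more in all 4 sham mice (a set chosen after seeing the data, with fewer loci), and 0 to 26 with a mouse left out (0.579% to 2.29%). For lactate against sham the 243 higher loci became 367 at an unadjusted p (12.5%), 130 of the 188 loci at 1 CPM or more in all 4 sham mice, and 139 to 243 with a mouse left out (5.36% to 8.54%), and the 0 lower became 1 at an unadjusted p. For lactate against vehicle the 0 higher became 116 at an unadjusted p (3.77%) and 3 with DESeq2 (0.287%), and the 0 lower became 1 at an unadjusted p. With a mouse left out, 0 remained in both directions there, and 0 lower for the other comparisons.

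Mouse numbers are shared between groups but belong to different animals, and same-numbered mice had correlations of their deviations from -0.149 to 0.160, so they were not treated as pairs. With the number as a replicate block, 9, 241 and 0 loci were higher in the 3 comparisons, beside 1.18%, 8.54% and 0% of all tested, and 0 were lower. Of 1912 values of single loci and genes under the alternatives, 45 lost and 13 gained a call and 0 called values changed sign, while 46 values that passed no test in either setting did. No scaling moved the median of all genes by over 0.1 on the log2 scale. The level of 3 counts, 0.281 to 0.440 CPM, limits what can be said of the rarer loci.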
